A study of Homo sapiens with 24 samples.

Results

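The genes described here are 8 lysine demethylases that act on methylated lysine 9 of histone H3 (H3K9): KDM1A, KDM3A, KDM3B, JMJD1C, KDM4A, KDM4B, KDM4C and PHF8. They were chosen by name, and every RefSeq transcript accession with 1 of these symbols was taken from the count table. This gave 35 of its 64519 accessions, and 5 of the 35 had enough reads to be tested. RNA-seq was performed on Nalm6, an established B-cell acute lymphoblastic leukemia line. The cells carried a lentiviral shRNA against the H3K9 methyltransferases G9a (shG9a) or GLP (shGLP), against the methyl-lysine reader HP1γ (shHP1γ), or a non-specific shRNA (shNS). All of them had thus been transduced and selected with puromycin, and the shRNA lines are mixed populations. Each line received the synthetic glucocorticoid dexamethasone (dex, 100 nM) or its vehicle ethanol for 8 h, which gives 8 conditions of 3 biological replicates made on different days. The study asked how G9a, GLP and HP1γ act as coactivators of the glucocorticoid receptor and whether lysine demethylases oppose them. The 24 libraries allow the demethylase transcripts to be followed with the hormone and with each depletion.

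Lysine demethylases belong to separate chemical classes. KDM1A (LSD1) uses FAD, removes mono- and dimethyl marks, and works in complexes with CoREST proteins and histone deacetylases. The others are Jumonji C (JmjC) enzymes that need iron and 2-oxoglutarate. The KDM3 group (KDM3A, KDM3B and the related JMJD1C) is known for mono- and dimethyl H3K9, the KDM4 group (KDM4A, KDM4B, KDM4C) for trimethyl and dimethyl H3K9 and for methylated H3K36, and PHF8, whose PHD finger binds H3K4me3, for dimethyl H3K9. Where such an enzyme removes mono- or dimethyl marks from H3K9, it counteracts G9a and GLP on histones. G9a and GLP themselves carry methylated lysines.

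Library totals ran from 9289533 to 14387770 counts with a median of 11132064.5, and 10167 accessions exceeded 1 CPM, the count relative to the sum of its library, in 2 libraries or more and were tested. Among known dex targets in shNS cells, TSC22D3 (NM_004089) rose from 8.05 to 88.9 CPM and FKBP5 from 8.97 to 29.9 CPM. For the depleted factors, the tested EHMT1 (GLP) accession lay between 1.66 and 3.21 CPM in the 6 shGLP libraries and between 2.67 and 4.6 CPM in the 6 shNS libraries. The CBX3 (HP1γ) accession NM_016587 lay between 1.59 and 3.39 CPM in the 6 shHP1γ libraries and between 3.23 and 4.25 CPM in the 6 shNS libraries. The ranges overlap in both cases. No call was made for either in a single treatment. In these cells the study reports efficient depletion of G9a, GLP and HP1γ, in protein by immunoblot and in mRNA by RT-qPCR. In averages over both treatments, added after the values were seen, EHMT1 was lower in 6 of 6 pairs with GLP depletion (log2 fold change -0.51, adjusted p = 0.0255 in edgeR) and NM_016587 in 6 of 6 pairs with HP1γ depletion (-0.55, adjusted p = 0.0231). The second tested CBX3 accession, NM_007276, had a value of -0.23 there (adjusted p = 0.479). No accession carried the G9a symbol (EHMT2), so its transcript could not be measured here. Of 8 B-cell precursor markers only CD79A and IGLL1 averaged 3 or more counts, while T-cell and epithelial markers stayed at or under 0.271 CPM in sum. Many of these markers have several accessions. The B-cell marker CD79B was itself at 0 in every library, so a low sum does not show absence.

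The table did not count all of these genes alike. KDM3B, KDM4A and KDM4B have 1 accession each and gave means of 7445, 2955 and 1320 counts per library. KDM1A, KDM3A, JMJD1C, KDM4C and PHF8 have 2 to 16 accessions each, and 24 of the 35 accessions were listed at 0 in every library. This follows a feature of the whole table: 26.337% of the accessions of genes with 1 accession were at 0 throughout, against 52.906% for genes with 2 accessions, 66.377% for genes with 3, and 81.804% for genes with 4 or more. Some transcripts that every cell uses were low as well. The glycolytic enzyme LDHA, with 6 accessions, averaged 8.42 counts in sum and the chaperone HSP90AB1, with 5, averaged 1.96, whereas ACTB, with 1 accession, averaged 113732.42. These examples were picked after their values were seen. A low or zero value of a gene with several accessions is therefore given only as what the table lists, and it is not compared with the level of a gene with 1 accession.

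**Figure D1:**
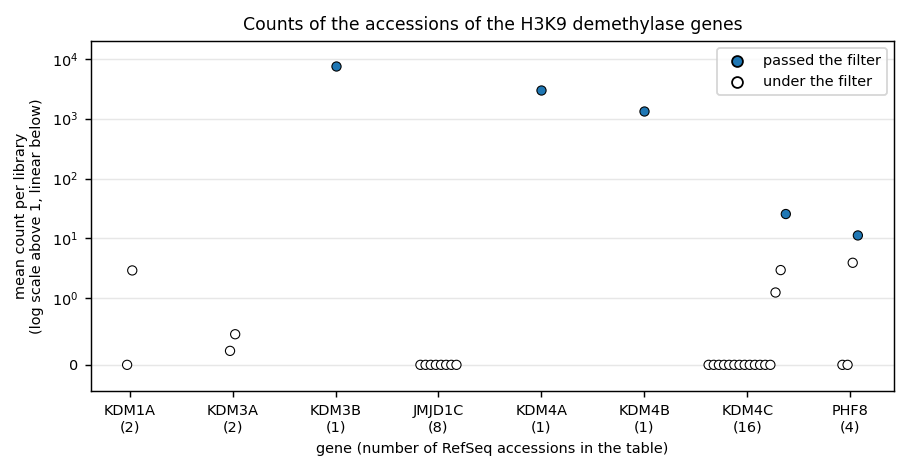
Mean count per library (vertical axis, logarithmic above 1 and linear below) of each of the 35 accessions, by gene, with the number of accessions of the gene in brackets; filled circles passed the filter. KDM3B, KDM4A and KDM4B, with 1 accession each, stand at 1320 counts or more, while the accessions of the other 5 genes stand at 25.54 counts or less and 24 of them at 0.

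KDM1A, the FAD-dependent enzyme (GRCh37 1:23345936-23410182, plus strand), had 2 accessions, 1 of them at 0, and the other gave 1 to 7 counts per library and 70 counts in all 24 libraries. KDM3A (2:86667770-86719839, plus strand), a dimethyl-H3K9 demethylase known as a partner of the androgen receptor, gave 0 to 2 counts per library over 2 accessions and 16 counts in all. JMJD1C (10:64926981-65281610, minus strand) was listed at 0 in all 24 libraries for each of its 8 accessions. None of these 3 genes had a tested accession, so no response to dex or to a depletion was measured for them here. The remaining 3 accessions with counts under the filter were 2 of KDM4C, with means of 1.25 and 2.96 counts, and 1 of PHF8, with a mean of 3.92 counts.

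KDM3B (NM_016604, GRCh37 5:137688374-137772717, plus strand) had the highest level of the 3 members with 1 accession, and the smallest ratio between its condition means. Its level, in CPM scaled by upper quartile factors, was 660, 669 and 728 in shNS ethanol and 636, 658 and 702 in shNS dex (replicates 1, 2 and 3). In shG9a it was 660, 645 and 667 with ethanol and 627, 624 and 676 with dex. In shGLP it was 668, 680 and 731 with ethanol and 629, 653 and 688 with dex. In shHP1γ it was 654, 652 and 718 with ethanol and 627, 650 and 662 with dex. Most conditions overlapped, but shGLP ethanol, from 668 to 731 CPM, lay higher than shG9a ethanol and shHP1γ dex. The highest condition mean was 1.08 times the lowest. Replicate 3 was the highest in 8 of 8 conditions, with a mean of 696 CPM against 645 and 654 CPM for replicates 1 and 2. Throughout, libraries were read in pairs of the same replicate number.

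KDM4A (NM_014663, 1:44115820-44171189, plus strand), a trimethyl-H3K9 and H3K36 demethylase, was at 265, 278 and 266 CPM in shNS ethanol and at 272, 254 and 272 CPM in shNS dex. In shG9a it was at 263, 271 and 264 CPM with ethanol and at 261, 239 and 281 CPM with dex. In shGLP it was at 235, 244 and 247 CPM with ethanol and at 234, 241 and 250 CPM with dex. In shHP1γ it was at 281, 277 and 285 CPM with ethanol and at 297, 281 and 270 CPM with dex. The 6 shGLP libraries, from 234 to 250 CPM, all lay lower than the 6 shNS libraries, from 254 to 278 CPM. The exons of KDM4A overlap those of KDM4A-AS1 on the opposite strand over 473 bases, and those of an unnamed gene on the same strand over 2086 bases. How strand was handled in the counting is not given in the sources used here, so reads in those stretches cannot be told apart. KDM4A-AS1 itself had a mean of 76.54 counts per library.

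KDM4B (NM_015015, 19:4969124-5153609, plus strand), a closely related enzyme known as a steroid receptor coregulator, was at 112, 103 and 112 CPM in shNS ethanol and at 131, 112 and 128 CPM in shNS dex. In shG9a it was at 127, 147 and 96.5 CPM with ethanol and at 105, 95.1 and 122 CPM with dex. In shGLP it was at 104, 128 and 109 CPM with ethanol and at 115, 113 and 127 CPM with dex. In shHP1γ it was at 130, 136 and 115 CPM with ethanol and at 136, 115 and 119 CPM with dex. The replicates of shG9a ethanol spread most, with a coefficient of variation of 20.5%, and held both the highest library of all and 1 of the lowest.

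KDM4C and PHF8 were measured through 1 low accession each. KDM4C (NM_001146696, 9:6720863-7175648, plus strand), which shares the substrates of KDM4A, had 29, 24 and 21 counts in shNS ethanol, 26, 27 and 15 in shNS dex, 29, 40 and 25 in shG9a ethanol and 38, 50 and 28 in shG9a dex. It had 24, 23 and 13 counts in shGLP ethanol, 28, 23 and 9 in shGLP dex, 21, 26 and 17 in shHP1γ ethanol and 33, 27 and 17 in shHP1γ dex. Replicate 3 was the lowest in 8 of 8 conditions (mean 1.59 CPM, against 2.69 and 2.55 CPM), the reverse of KDM3B. The PHF8 accession (NM_001184898, X:53963109-54075391, minus strand) had 5 to 22 counts per library and a mean of 1.0 CPM. Its widest spread was in shNS ethanol, where replicates 1, 2 and 3 had 6, 5 and 22 counts.

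**Figure D2:**
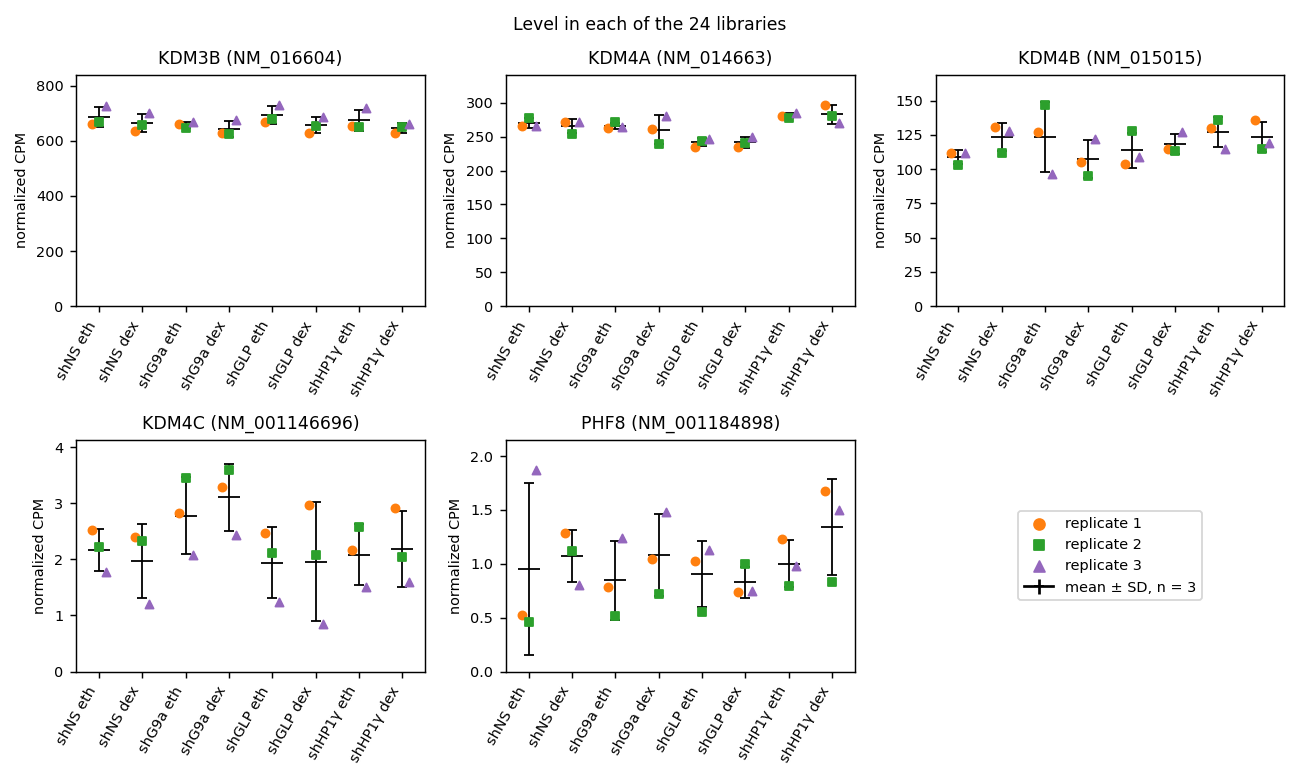
Level of the 5 tested accessions (vertical axes, CPM scaled by upper quartile factors, each from 0) in the 8 conditions (horizontal axes; eth is ethanol); symbols are the 3 replicates, bars the mean ± SD (n = 3). KDM3B spans 624 to 731 CPM with replicate 3 highest in every condition, KDM4A is lowest in both shGLP conditions, and KDM4C is highest in both shG9a conditions.

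Levels were set side by side per kilobase of transcript, with the length of the GENCODE MANE Select transcript in place of the counted one, and only for genes with 1 accession in the table. KDM3B stood at 98.9 ± 4.51 CPM per kb (SD over 24 libraries), KDM4A at 58.8 ± 3.84 and KDM4B at 21.1 ± 2.34, and the ranges of the 3 did not overlap. Among other demethylases on the same scale, the JmjC hydroxylase RIOX1 had 53.7 and the LSD2 gene KDM1B, the closest relative of KDM1A, had 44.5 CPM per kb. The H3K4 demethylase KDM5A had 35.9 CPM per kb, and PHF2, a relative of PHF8, had 21.6. The libraries of KDM4B ran from 17.0 to 26.2 CPM per kb and overlapped those of PHF2. The testis-associated KDM4D stood at 3.36 CPM per kb, and KDM4E at 0.0154.

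No response to dex was called for the 5 tested accessions in any of the 4 lines. A call means an adjusted p of at most 0.05 (edgeR quasi-likelihood test, Benjamini-Hochberg over all 10167 accessions, replicate number as a block). Of the 5 accessions 0 were called in shNS, where 9.95% of all accessions were called, 0 in shG9a (6.24% of all), 0 in shGLP (3.29%) and 0 in shHP1γ (3.22%). None had an unadjusted p under 0.05 in these 4 comparisons, and DESeq2 called 0 in each.

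KDM3B was lower with dex in 11 of 12 pairs of libraries. Averaged over the 4 lines it went from 678 to 653 CPM, a log2 fold change of -0.054 (SE 0.021, 95% confidence interval -0.098 to -0.01). The unadjusted p was 0.019 and the adjusted p 0.0717 in edgeR. It was the only 1 of the 5 with an unadjusted p under 0.05 in that average, where 23.8% of all accessions and 0 of the 5 were called, and DESeq2 also called 0. With the 4 lines taken separately, the lowest and highest bounds of their 95% confidence intervals for the dex response were 0.892-fold and 1.04-fold for KDM3B. For KDM4A these intervals reached from 0.905-fold to 1.09-fold. They were wider for KDM4B, from 0.736-fold to 1.35-fold, for KDM4C, from 0.642-fold to 1.51-fold, and for PHF8, from 0.502-fold to 2.32-fold.

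KDM4B had dex values of opposite sign in shNS and shG9a, neither of them called. It was higher with dex in 3 of 3 shNS pairs, with a log2 fold change of 0.18 (SE 0.12, adjusted p = 0.426 in edgeR), but in shG9a the value was -0.20 (SE 0.12, adjusted p = 0.374), lower in 2 of 3 pairs. When only the shNS libraries were fitted, the value was 0.20 and the adjusted p 0.00206. That fit called 2186 of 9184 accessions, against 1012 of 10167 with all libraries. The difference between the 2 responses was -0.38 (SE 0.17, 95% confidence interval -0.73 to -0.03), with an unadjusted p of 0.0337 and an adjusted p of 0.707. Only 0.0885% of all accessions were called in that comparison. The corresponding differences of the dex response were called for 0 of the 5 accessions in shGLP (0.118% of all) and in shHP1γ (0.0197%).

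G9a depletion went with higher counts of the KDM4C accession. With dex it was at 2.39, 2.32 and 1.21 CPM in shNS and at 3.28, 3.59 and 2.44 CPM in shG9a, so the groups did not overlap. The log2 fold change was 0.67 (SE 0.22, 95% confidence interval 0.22 to 1.12), higher in 3 of 3 pairs, with an unadjusted p of 0.00548 and an adjusted p of 0.0574 in edgeR, and 0 of the 5 accessions were called where 8.8% of all were. With ethanol the levels were 2.52, 2.21 and 1.78 CPM in shNS and 2.83, 3.44 and 2.07 CPM in shG9a, which overlap. The log2 fold change was 0.36 (SE 0.22, adjusted p = 0.501), again higher in 3 of 3 pairs, and 3.73% of all accessions were called. The effects with dex and with ethanol differed by 0.32 (SE 0.31, adjusted p = 0.861).

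The depletion effect averaged over both treatments was added after these values were seen. It was 0.51 (SE 0.16, 95% confidence interval 0.19 to 0.84, adjusted p = 0.0299), with 13.6% of all accessions called, and KDM4C was the 1 accession of the 5 called. Without the replicate block the value was 0.51 and the adjusted p 0.244, and in DESeq2 0.53 and 0.0759. It was lost when any of 8 of the 12 shNS and shG9a libraries was left out, with adjusted p from 0.053 to 0.0845. With all 16 accessions of KDM4C summed, the log2 fold change was 0.33 (adjusted p = 0.157), so the call rests on 1 accession with 15 to 50 counts per library in these cells. In the same average the B-cell marker CD79A was lower, from 10.3 to 6.68 CPM (log2 fold change -0.67, adjusted p = 0.0344). The B-cell marker IGLL1 had a value of -0.34 that was not called (adjusted p = 0.0532). The myeloid marker LYZ was higher, from 3.28 to 5.93 CPM (0.90, adjusted p = 0.0165). The myeloid marker MPO had the opposite sign and was not called (-0.74, adjusted p = 0.232). The part of these markers in the KDM4C result was not tested.

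The other accessions had smaller differences with G9a depletion. In the average added later KDM3B was lower in 6 of 6 pairs, at 650 against 676 CPM, a log2 fold change of -0.055 (SE 0.03, adjusted p = 0.257). In the corresponding averages it was also lower in 6 of 6 pairs with HP1γ depletion, at 660 CPM (-0.032, adjusted p = 0.586). With GLP depletion it was lower in 3 of 6. KDM4B was at 108 against 124 CPM with dex and at 123 against 109 CPM with ethanol, with adjusted p of 0.322 and 0.544.

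GLP depletion went with a lower KDM4A level. With ethanol the log2 fold change was -0.155 (SE 0.055, 95% confidence interval -0.27 to -0.04), from 270 to 242 CPM, with an unadjusted p of 0.00992 and an adjusted p of 0.158 in edgeR. With dex it was -0.14 (SE 0.055, 95% confidence interval -0.25 to -0.03), from 266 to 242 CPM, with an unadjusted p of 0.0194 and an adjusted p of 0.175. KDM4A was lower in 3 of 3 pairs each time. None of the 5 accessions was called, while 3.61% of all were called with ethanol and 5.77% with dex, and DESeq2 called 0 in both. With 2 factors estimated from the residuals in place of the replicate block, and with only the compared groups in the fit, KDM4A was called in both treatments, with adjusted p from 0.0274 to 0.0445. More accessions were called in these fits as well. The residual factors called 630 of 10167 with ethanol and 970 with dex, against 367 and 587 in the main fit. The compared groups alone called 803 of 9195 with ethanol and 1176 of 9256 with dex.

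Averaged over both treatments, a comparison added after these values were seen, KDM4A fell from 268 to 242 CPM with GLP depletion. The log2 fold change was -0.15 (SE 0.039, 95% confidence interval -0.23 to -0.07, adjusted p = 0.0147), in 6 of 6 pairs, with 10.0% of all accessions called. Leaving out all libraries of replicate 1 gave -0.12 (adjusted p = 0.197), of replicate 3 -0.16 (0.134), and leaving out shNS ethanol replicate 2 alone -0.13 (0.0517).

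The myeloid marker LYZ moved with the same depletion. It rose from 4.02 to 25.8 CPM with ethanol and from 2.55 to 23.5 CPM with dex (adjusted p = 3.21e-06 and 5.94e-07 in edgeR). MPO was not called with ethanol (log2 fold change 1.23, adjusted p = 0.0667) or with dex (1.13, adjusted p = 0.233). It was called in the average added later (1.18, adjusted p = 0.0127). The summed level of the 5 myeloid markers was 20.4 to 34.0 CPM in shGLP libraries and 2.74 to 7.81 CPM in shNS libraries, with 2 of the 5 averaging 3 or more counts. LYZ alone was at 19.4 to 31.2 CPM in the shGLP libraries. The B-cell markers were not called in the average added later. CD79A had a value of 0.45 there (adjusted p = 0.17) and IGLL1 of 0.18 (adjusted p = 0.39), so neither was lower. The part of these markers in the KDM4A result was not tested, and fewer cells with the transcript cannot be told apart from less transcript per cell in bulk RNA. For the other 4 accessions GLP depletion gave adjusted p of 0.773 or more in each treatment and on average.

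HP1γ depletion gave no call among the demethylases. Of the 5 accessions 0 were called with dex (4.09% of all) and 0 with ethanol (2.91%), none had an unadjusted p under 0.05, and DESeq2 called 0 in both. On average over both treatments, also added later, 0 were called where 10.0% of all were. KDM4A was at 282 against 268 CPM there, a log2 fold change of 0.07 (SE 0.039, 95% confidence interval -0.01 to 0.15), opposite in sign to the value with GLP depletion. KDM4B was at 127 against 109 CPM with ethanol (log2 fold change 0.22, SE 0.12, adjusted p = 0.419), higher in 3 of 3 pairs, and at 123 against 124 CPM with dex. All 3 depletions are compared with the same shNS libraries, so their values are not independent of each other.

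**Figure D3:**
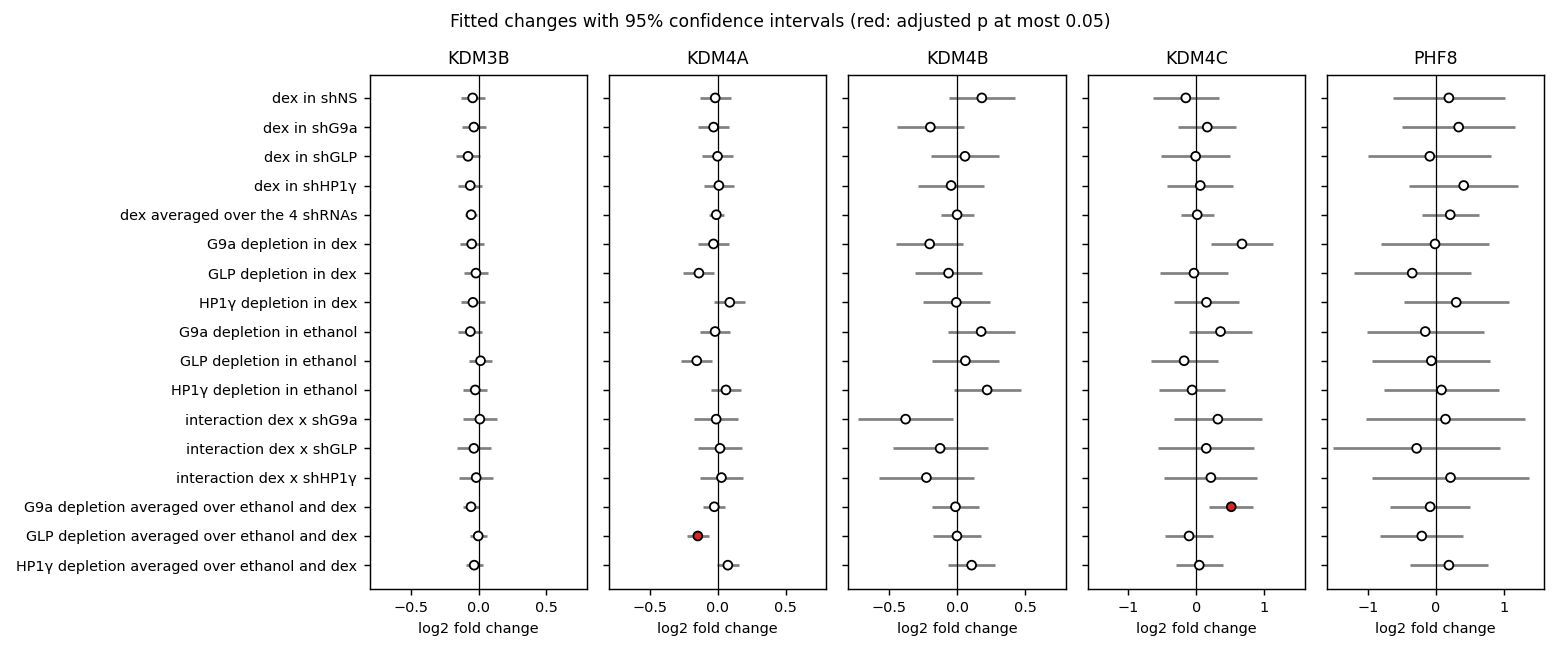
Log2 fold change (horizontal axes; wider for KDM4C and PHF8) of the 5 tested accessions in the 14 comparisons of the design and the 3 depletion averages added later; lines are 95% confidence intervals and red marks an adjusted p of at most 0.05. The red points are KDM4C in the G9a average (0.51) and KDM4A in the GLP average (-0.15); the intervals of PHF8 are the widest.

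In all, 70 tests were made over the 14 comparisons of the design, of which 0 were called and 5 had an unadjusted p under 0.05. Over all accessions, 3.81% to 34.0% had an unadjusted p under 0.05, depending on the comparison. The median log2 fold change of the 5 accessions with G9a depletion was -0.032 with dex and -0.02 with ethanol, beside 0.003 and -0.023 over all accessions. With GLP depletion it was -0.063 and -0.064, beside 0.03 and 0.014, and with HP1γ depletion 0.088 and 0.06, beside 0.028 and 0.018.

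Other genes of the same chemistry were counted from lists. Of 16 further lysine demethylases 8 had a tested accession, 9 accessions in all. With dex averaged over the lines 2 of the 9 were called, both lower, beside 23.8% of all accessions, and the median log2 fold change was -0.018 beside -0.009 for all. KDM1B, the second FAD-dependent demethylase, fell by 0.11 on the log2 scale (SE 0.03, adjusted p = 0.00595), lower in 11 of 12 pairs, and by 0.17 in shNS alone, from 216 to 192 CPM (adjusted p = 0.0499). RIOX1 fell by 0.09 (SE 0.03, adjusted p = 0.0247), lower in 10 of 12 pairs. With a depletion in a single treatment 0 of the 9 were called. In the averages added later 1 of the 9 was called with G9a depletion, beside 13.6% of all accessions. With HP1γ depletion it was 1 of the 9, beside 10.0%. Both calls were KDM7A, the JmjC paralog of PHF8 for dimethyl H3K9 and H3K27. It rose from 46.3 to 63.9 CPM with G9a depletion (0.46, SE 0.15, adjusted p = 0.0436), higher in 6 of 6 pairs. With HP1γ depletion it rose to 68.1 CPM (0.51, SE 0.15, adjusted p = 0.0324), higher in 5 of 6 pairs.

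KDM1A itself could not be tested, but 9 of 14 of its complex partners could, through 10 accessions. With dex averaged over the lines 3 of the 10 were called, all lower, beside 23.8% of all accessions, and the median of the 10 was -0.011 beside -0.009 for all. RCOR1 (CoREST), the scaffold that lets KDM1A act on nucleosomes, fell in 12 of 12 pairs, from 313 to 280 CPM (-0.16, SE 0.03, adjusted p = 6.33e-05). It fell in shNS by 0.21 (adjusted p = 0.00805) and in shG9a by 0.20 (adjusted p = 0.0194). RCOR1 was higher with GLP depletion in dex, at 316 against 270 CPM (0.22, SE 0.05, adjusted p = 0.00724). It was the 1 of the 10 called there, beside 5.77% of all. Its paralog RCOR2 fell with dex from 9.54 to 8.08 CPM (-0.26, SE 0.09, adjusted p = 0.0479), lower in 8 of 12 pairs. In dex it was at 10.2 CPM with HP1γ depletion against 6.23 in shNS (0.72, SE 0.19, adjusted p = 0.0313), higher in 2 of 3 pairs. It was the 1 of the 10 called there, beside 4.09% of all. The zinc finger partner ZMYM3 fell through 1 of its tested accessions, NM_201599, from 1.03 to 0.69 CPM (-0.59, SE 0.22, adjusted p = 0.0488), lower in 9 of 12 pairs. The other, NM_001171162, had a value of 0.03 (SE 0.17).

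Of the listed H3K9 writers and readers, 10 of 16 had a tested accession, 14 in all. With dex averaged over the lines 1 was called higher and 2 lower, beside 23.8% of all accessions, with a median of -0.018 beside -0.009 for all. TRIM28 (KAP1), which recruits the methyltransferase SETDB1, fell in 12 of 12 pairs, from 1710 to 1500 CPM (-0.19, SE 0.04, adjusted p = 0.000469). CDYL, a chromodomain reader, fell by 0.24 (SE 0.08, adjusted p = 0.0334), lower in 11 of 12 pairs. It was higher with GLP depletion in dex, at 13.6 against 9.03 CPM (0.59, SE 0.16, adjusted p = 0.0323). That was the 1 call among the 14 there, beside 5.77% of all accessions. With ethanol 0 of the 14 were called. In the average added later CDYL was higher in only 4 of 6 pairs (0.36, adjusted p = 0.0434). For UHRF1, which reads H3K9 methylation beside DNA methylation, only NM_013282 was called. It rose from 2.29 to 3.14 CPM (0.45, SE 0.11, adjusted p = 0.00523), higher in 12 of 12 pairs, with a mean of 30.29 counts per library. The accession with most counts, NM_001048201 (mean 311.08), had a value of -0.13, and the other tested accession had 0.34. Neither of these was called.

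**Figure D4:**
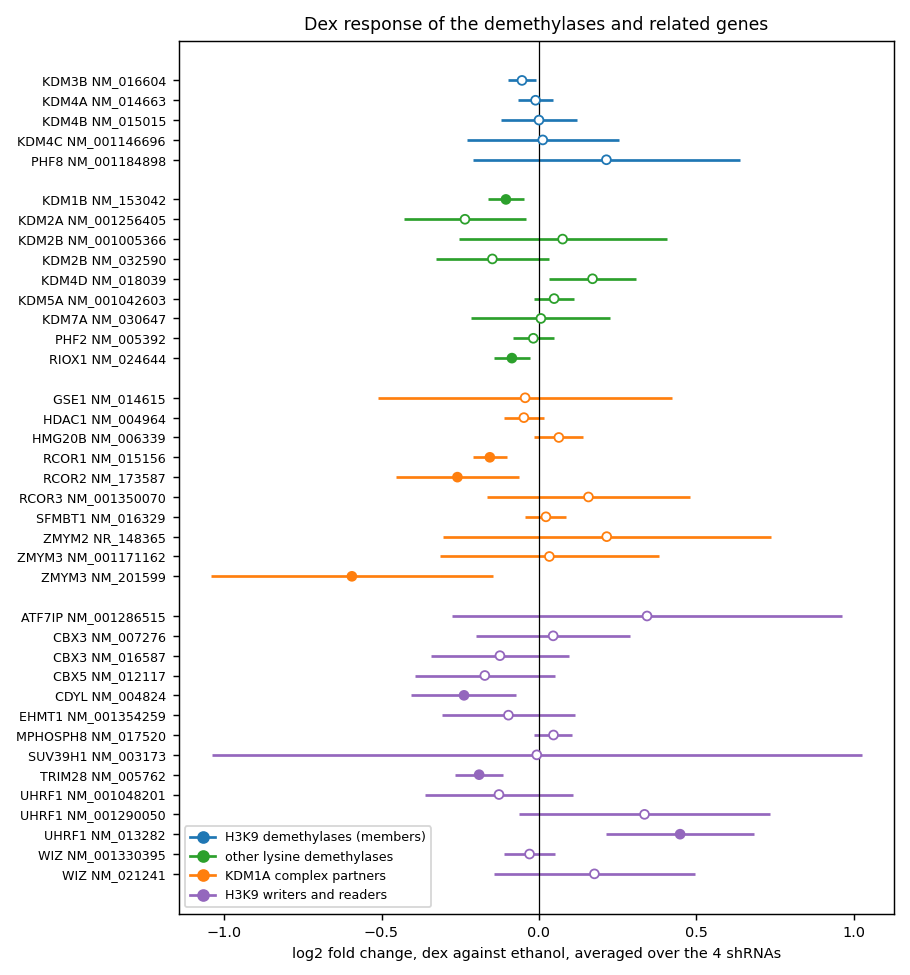
Log2 fold change with dex, averaged over the 4 lines (horizontal axis), of each tested accession of the H3K9 demethylases, of further lysine demethylases, of KDM1A complex partners and of H3K9 writers and readers; lines are 95% confidence intervals and filled circles have an adjusted p of at most 0.05. None of the 5 H3K9 demethylases is filled, and the filled ones include RCOR1 (-0.16), TRIM28 (-0.19) and KDM1B (-0.11).

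KDM4B had the widest range of condition means on the log2 scale (0.2429) among KDM3B, KDM4A and KDM4B. The accessions of other genes whose log2 CPM followed it most closely over the 24 libraries, after the mean of each replicate number was subtracted, were CHLSN (Pearson r = 0.8404), BNIP3L (0.7362), LOC100996740 (0.6868), LINC00921 (0.668) and MOB3A (0.6522), out of 5604 candidates. Between the members themselves r was 0.4548 for KDM4A and KDM4B, -0.0901 for KDM4A and KDM3B and 0.0397 for KDM4B and KDM3B. All these points share libraries, depth and scaling, and the values are a description.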

How the data were processed

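RNA-seq libraries were made from cDNA of total RNA from the 24 samples, and per the labels and the methods the authors trimmed the reads, aligned them to hg19 with HISAT2 and counted RefSeq transcripts with GenomicAlignments. The counting mode, strand setting and RefSeq release are not given in the sources used here. Although the file name of the deposited table says CPM, the authors put whole numbers in it whose sums differ between libraries, and these counts entered the model as they are, with scaling factors as offsets. Gene symbols came from the authors' second table for 9872 accessions and from RefSeq for 53873, and 774 stayed without a symbol. That second table otherwise holds the authors' own fold changes and FDR values, which were not used.

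Counts were scaled by upper quartile factors, filtered (over 1 CPM in at least 2 libraries) and fitted in 1 edgeR 4.0.16 quasi-likelihood model (R 4.3.3) of 8 conditions with replicate number as a block, which stands in for the RUV step of the study, whose variant is not stated. Per the labels the replicates were made on different days, and deviations of same-numbered libraries correlated from -0.0025 to 0.6387, over 0.1 in 83.33% of pairs. No 2 replicates agreed within sampling noise. Steps were tested on simulated data. DESeq2 1.42.0, TMM scaling, other filters and leave-one-out fits were alternatives. Coordinates are GRCh37 (GENCODE v44lift37). The depth limits the precision of transcripts with few counts, and intervals cover the fitted model only.

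The members, gene lists and comparisons were chosen with earlier results of these data known. Every member accession is accounted for, and listed genes are named where a comparison of the design called them (at most 6 per list). KDM7A, and the values of the added averages, were named after their values were seen.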

Additional observations from a re-analysis of the deposited data

How the results depend on the processing

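Of the 14 comparisons of the design, those of the 5 demethylase accessions that changed their count of calls went from 0 to 1. With only the compared groups in the fit this was KDM4B with dex in shNS (adjusted p = 0.00206), KDM4A with GLP depletion in dex (0.0445) and KDM4A with GLP depletion in ethanol (0.0396). Those fits called 2186 of 9184, 1176 of 9256 and 803 of 9195 accessions in that order. With 2 residual factors in place of the replicate block it was KDM3B with dex on average (-0.053, adjusted p = 0.0252) and KDM4A with GLP depletion in dex (0.0405) and in ethanol (0.0274). There 2998, 970 and 630 of all 10167 accessions were called in that order. Leave-one-out counts for G9a depletion in dex were 0 to 1, the 1 being KDM4C without shG9a dex replicate 1 (0.78, adjusted p = 0.0476). In that fit 946 of 10147 accessions were called. For the averages added after the values were seen, leave-one-out counts were 0 to 1. KDM4C with G9a depletion fell to 0 calls with no replicate block (adjusted p = 0.244), with no filter (0.113), with a mean of at least 5 CPM (not tested there), in DESeq2 (0.0759), without replicate 2 (0.258) and without replicate 3 (0.174). KDM4A with GLP depletion fell to 0 calls without replicate 1 (0.197), without replicate 3 (0.134) and without shNS ethanol replicate 2 (0.0517). The cause was not tested. No call reversed in direction, and leaving out the block changed no other call of these accessions. Over all settings the log2 fold change ran from 0.334 to 0.628 for KDM4C with G9a depletion on average and from -0.194 to -0.12 for KDM4A with GLP depletion on average.

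The counts behind KDM4C and PHF8 (at most 50 and 22 per library) and the missing counts of KDM1A, KDM3A and JMJD1C limit the precision. Summed accessions, as fitted for KDM4C, hold only the counts that were listed. A change in the gene as a whole can therefore not be read for these 5 genes.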
